A study of Mus musculus with 6 samples.

Results

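Transcripts of network, fibril-associated and transmembrane collagens were examined in mouse mammary glands reconstituted with epithelium that had or lacked Adamts18, a secreted metalloprotease. The set held 10 genes, Col8a1, Col8a2, Col9a1, Col9a2, Col9a3, Col12a1, Col14a1, Col16a1, Col23a1 and Col25a1, taken by symbol from a count table of 34590 gene symbols. The genes were selected from among the collagens by class, with their difference between the genotypes in these same libraries already known, so the genotype values given here are descriptions of the measured levels and no test of genotype is drawn from them. All 10 of the 10 genes passed the filter on low counts, which kept 17345 genes.

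Each of 3 wild-type host mice carried WT.EGFP+ epithelium in the left inguinal gland (gland number 4) and Adamts18-/-.EGFP+ epithelium in the right one, and each gland gave 1 library, so the comparison had 3 WT and 3 Adamts18-/- glands in 3 pairs. In this transplantation design the fat pads of the hosts are cleared of their own epithelium before engraftment, and the host's wild-type stroma, fat, vessels and nerves remain on both sides. The Adamts18-/- and EGFP lines were kept on a C57BL/6JOlaHsd background. The mutant allele lacked exons 8 and 9, which encode the catalytic site, and the epithelium of both genotypes carried a constitutive EGFP transgene driven by the chicken beta-actin promoter. The ages of the hosts at engraftment and at harvest were not given for these glands in the sources used here. The WT grafts were all on the left, so genotype and body side cannot be told apart, and host, epithelial donor and experiment cannot be told apart either.

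Collagens of these classes do not form the thick fibrils of the stroma themselves. Collagens VIII assemble into hexagonal networks beneath endothelium and in the cornea, collagens IX, XII, XIV and XVI decorate the surface of fibrils built by other collagens, and collagens XXIII and XXV sit in the plasma membrane with their collagenous part outside the cell, from which furin-like proteases can release it. In the mammary gland the ducts are wrapped in a basement membrane and embedded in a fibrous and fatty stroma, where such collagens link fibrils, cells and matrix.

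The libraries held 53875123 to 71595924 counts. The labels describe sorted GFP-positive mammary epithelial cells, whereas the text of the study speaks of profiled glands. Marker lists were summed in CPM (the count of a gene scaled to the size of its library). Fibroblast genes stood at 7580 to 16100 and adipocyte genes at 7950 to 18200 per library, against 914 to 1850 for 20 pan-epithelial genes. RNA of stroma and fat was thus abundant in every library. Most of the fibroblast sum came from Gsn, which averaged 9590 CPM in WT and 9140 CPM in mutant glands, so the sum mainly follows that gene. Dpt, the next of that list, averaged 1020 and 1000 CPM. Adamts18 itself was at 3.61, 9.92 and 6.80 CPM in WT glands (mice 1, 2 and 3) and at 2.75, 4.87 and 3.29 CPM in the Adamts18-/- glands, lower in the mutant gland of each of the 3 hosts. The deleted exons cannot be seen in counts per gene.

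Promoters are shown for the genes called lower in mutant glands in the comparison below, as far as a window was found. RefSeq windows on GRCm38.p6 were found for 7 of the 10 genes, in 8 windows, as Col9a1 has a pair of annotated start sites. Col9a3, Col12a1 and Col14a1 had none. Start sites here are those of RefSeq. The GENCODE M21 annotation begins Col25a1 at chr3:130131501, upstream of the window shown, and Col9a2 at chr4:121039385, inside its window. The 250 bases before the start site are given 5′ to 3′ on the gene's strand, with capitals marking the GC box (GGGCGG, or CCGCCC on the other strand), for Col8a1 at chr16:57754738-57754987 (minus strand), Col9a2 at chr4:121039316-121039565 (plus strand) and Col25a1 at chr3:130180595-130180844 (plus strand).
Col8a1: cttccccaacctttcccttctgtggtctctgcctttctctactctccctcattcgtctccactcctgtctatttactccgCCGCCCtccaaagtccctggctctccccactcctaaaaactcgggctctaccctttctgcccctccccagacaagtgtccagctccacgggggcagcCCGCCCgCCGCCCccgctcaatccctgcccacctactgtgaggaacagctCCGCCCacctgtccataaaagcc
Col9a2: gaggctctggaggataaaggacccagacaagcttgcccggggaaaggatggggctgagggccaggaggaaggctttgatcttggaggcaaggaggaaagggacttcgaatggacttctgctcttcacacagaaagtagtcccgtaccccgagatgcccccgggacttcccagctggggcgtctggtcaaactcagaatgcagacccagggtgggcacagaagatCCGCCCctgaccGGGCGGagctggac
Col25a1: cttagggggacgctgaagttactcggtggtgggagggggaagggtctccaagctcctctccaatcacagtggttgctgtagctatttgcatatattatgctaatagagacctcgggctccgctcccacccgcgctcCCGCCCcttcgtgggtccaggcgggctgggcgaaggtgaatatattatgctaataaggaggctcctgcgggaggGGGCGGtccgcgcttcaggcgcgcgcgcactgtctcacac

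The Col8a1 window held 4 GC boxes, starting 170, 73, 66 and 23 bases before the start site. The Col9a2 window held 2, at 26 and 14 bases, and the Col25a1 window 2, at 114 and 40 bases. A GC box stood in 6 of the 8 windows, against 32.7% of 32851 promoter windows of the same length. Neither Col9a1 window held one. The letters of the TEAD motif (GGAATG or CATTCC, in 12.6% of all windows), of a SOX motif (ACAATG or CATTGT, 10.7%) and of the TATA box (TATAAA or TTTATA, 12.4%) were in none of the 8 windows.

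Levels of the genes differed widely. Per kilobase of exon, Col14a1 averaged 61.7 CPM per kb over the 6 libraries and Col16a1, a fibril-associated collagen of many connective tissues, 21.3 CPM per kb. Col9a2 (8.67 CPM per kb), Col8a1 (6.95 CPM per kb) and Col9a3 (5.62 CPM per kb) formed a middle group whose libraries overlapped. Col23a1 (1.87 CPM per kb) and Col12a1 (1.46 CPM per kb) followed, also with overlapping libraries. Col9a1 (0.567 CPM per kb), Col8a2 (0.347 CPM per kb) and Col25a1 (0.230 CPM per kb) closed the order, with neighbours that did not differ beyond their spread.

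**Figure D1:**
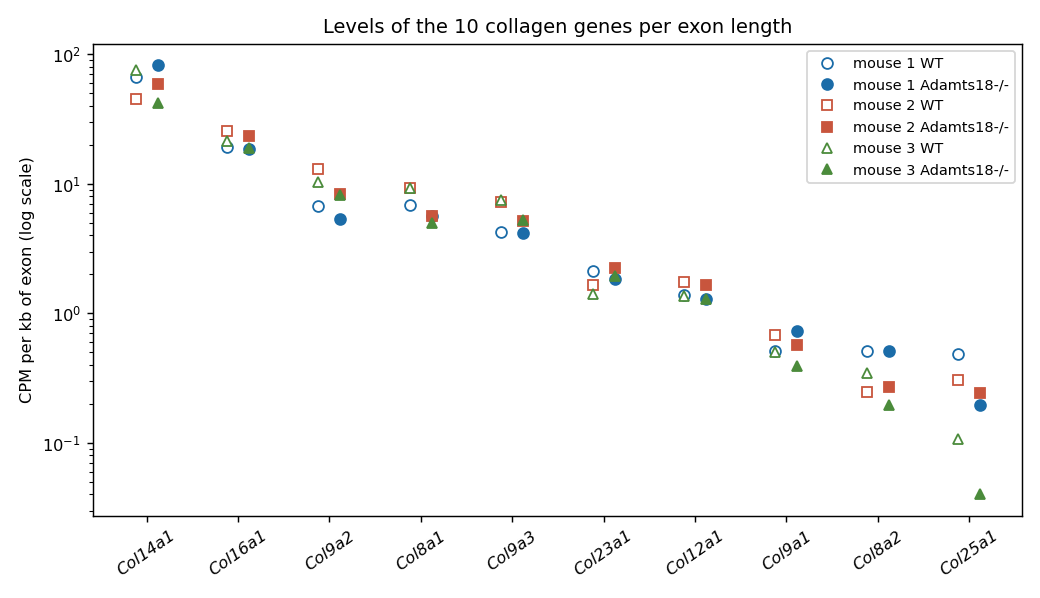
Levels of the 10 collagen genes per exon length. The vertical axis gives CPM per kb of exon on a log scale; each point is 1 library, open for WT and filled for Adamts18-/-, with a shape and colour for each mouse. Col14a1 averaged 61.7 CPM per kb and Col25a1 0.230, and the Col25a1 values of mouse 3 lie under those of the other hosts.

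Across the genotypes, 9 of the 10 genes had a fitted log2 fold change under 0, with a median of -0.17 against 0.001 for all 17345 genes. Where the fitted fold was under 0.8 and its unadjusted p below 0.05 counted as a call, the set had 4 genes lower in mutant glands, Col8a1, Col9a2, Col9a3 and Col25a1; 1.84% of all genes tested were called lower in this way. None was called higher, as were 1.17% of all genes. Levels were lower in the mutant gland of all 3 hosts for 6 genes, Col8a1, Col9a2, Col9a3, Col12a1, Col16a1 and Col25a1, and 12.7% of all genes did the same. Without the mouse as a block, only Col8a1 of the set was called lower, and the calls over all genes went from 319 to 125 (0.721% of those tested). Because the genes were selected with this contrast known, nothing is read from these shares. With Benjamini-Hochberg adjustment over all genes, edgeR called 0 genes at 0.05, against 670 genes and 4 members by unadjusted p, and DESeq2 called 71 genes, of which Col8a1 was the only member.

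Col8a1, which encodes the alpha1 chain of the network-forming collagen VIII, stood at 54.0, 73.3 and 72.3 CPM in WT glands (mice 1, 2 and 3) and at 44.0, 43.9 and 39.2 CPM in the Adamts18-/- glands. Every mutant gland lay below every WT gland, and no other gene of the set showed such a separation; over all genes, 2.63% did. The mean was 66.5 ± 10.9 CPM in WT and 42.4 ± 2.74 CPM in mutant glands (SD, n = 3 each), a fitted log2 fold change of -0.64 (SE 0.13) or a fold change of 0.641. The log2 difference was -0.30 in mouse 1, -0.74 in mouse 2 and -0.88 in mouse 3. In bulk RNA a lower level may come from fewer cells of a type or from less RNA per cell, and these cannot be told apart.

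Col8a2, the partner chain of collagen VIII, was at 2.28, 1.11 and 1.56 CPM in the WT glands and at 2.29, 1.22 and 0.879 CPM in the mutant glands. The groups overlapped, and the fitted log2 fold change of -0.22 (SE 0.26) rested on mouse 3, with log2 differences of 0.01, 0.13 and -0.81 in the 3 hosts. Without mouse 3 it was 0.08. Per exon length, Col8a1 was 11.0 to 37.9 times as abundant as Col8a2 in the 6 libraries.

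**Figure D2:**
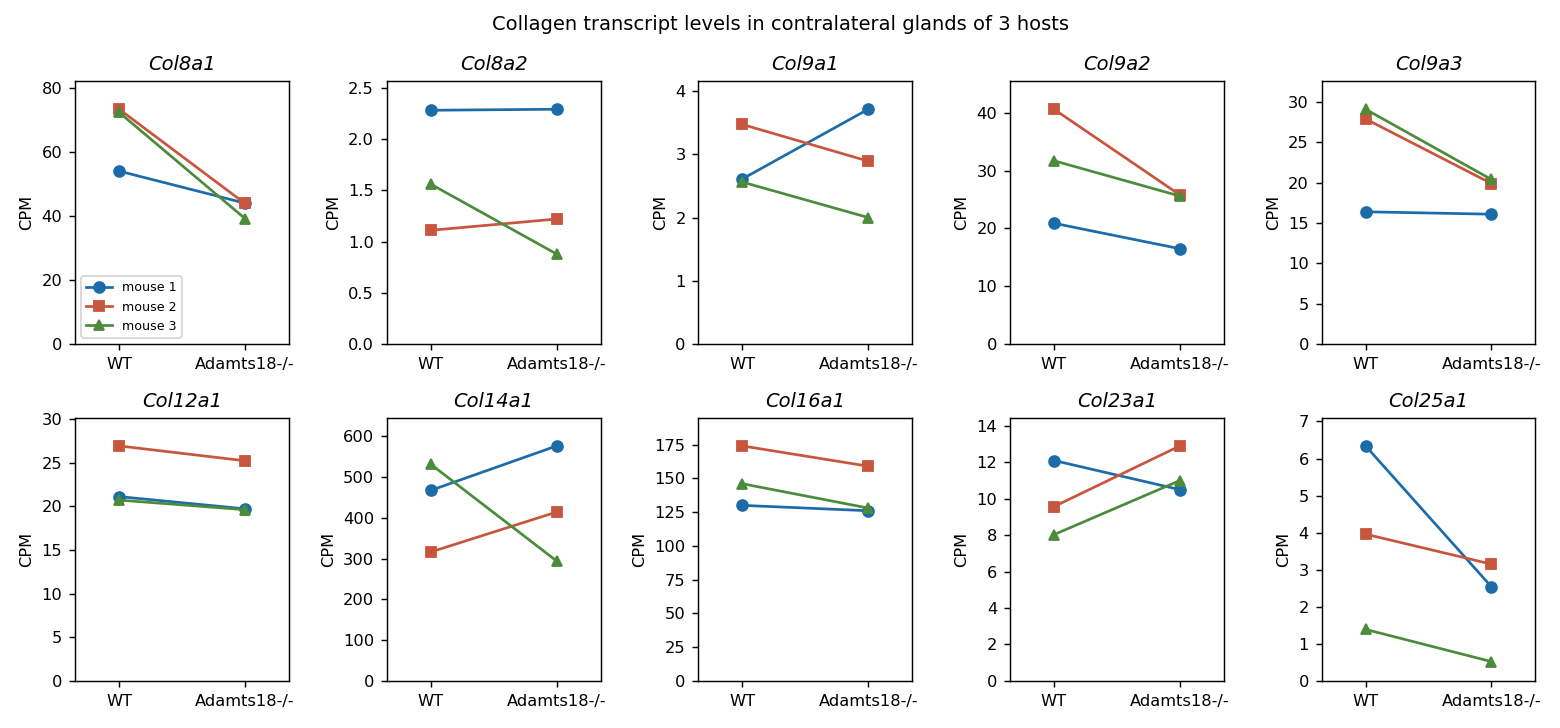
Levels of the 10 collagen genes by gland. The vertical axes give CPM, each starting at 0 with its own scale; each line joins the WT gland (left) and the Adamts18-/- gland (right) of 1 mouse. The lines of Col8a1, Col9a2 and Col25a1 fall in every mouse, and those of Col14a1 rise in mice 1 and 2 and fall in mouse 3.

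Collagen IX is a heterotrimer of chains encoded by Col9a1, Col9a2 and Col9a3, best known from the surface of cartilage fibrils. Col9a2 was at 20.9, 40.6 and 31.7 CPM in the WT glands and at 16.5, 25.8 and 25.6 CPM in the mutant glands. The mutant gland was lower within each pair, while the groups overlapped, because both glands of mouse 1 were low. The means were 31.1 ± 9.87 and 22.6 ± 5.33 CPM (SD, n = 3 each), and the fitted log2 fold change was -0.44 (SE 0.10).

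Col9a3 was at 16.4, 27.9 and 29.1 CPM in the WT glands and at 16.1, 19.9 and 20.4 CPM in the mutant glands. Mouse 1 showed almost no difference (log2 difference -0.02), and mice 2 and 3 differed by -0.48 and -0.51. The fitted log2 fold change was -0.34 (SE 0.13), a fold change of 0.789 just inside the threshold, and the call was lost without mouse 2 (-0.27) and without mouse 3 (-0.25). Col9a3 (chr2:180597790-180622189, plus strand, GENCODE M21 on GRCm38) shares 234 exon bases with Tcfl5 on the opposite strand, and the strand setting of the counting was not given in the sources used here; Tcfl5 averaged 0.131 CPM in WT and 0.263 CPM in mutant glands, far below Col9a3.

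Col9a1 differed in direction from its partner chains in mouse 1 only, and without that mouse its log2 fold change was -0.31. A difference between the chains was not tested. Col9a1 was at 2.61, 3.47 and 2.56 CPM in the WT glands and at 3.71, 2.89 and 2.00 CPM in the mutant glands. It was higher in the mutant gland of mouse 1 and lower in those of mice 2 and 3, with a fitted log2 fold change of -0.04 (SE 0.24). Of the collagen IX transcripts per exon length, Col9a1 made up 2.76 to 7.15%, Col9a2 52.0 to 62.3% and Col9a3 34.4 to 41.2% in the 6 libraries. Over these 6 libraries, which include both genotypes and share hosts in pairs, log2 CPM of Col9a2 and Col9a3 had a Pearson r of 0.92, whereas Col9a1 had an r of -0.08 with Col9a2 and -0.06 with Col9a3. Markers of cartilage cells were low. Of 10 chondrocyte genes 8 were in the table and 2 were high enough to test, with no call among the 2. The summed level of the 8 was 2.38 to 4.14 CPM. Most of it came from Lect1, which averaged 2.35 CPM in WT and 1.96 CPM in mutant glands, so the sum mainly follows that gene. This low sum nevertheless moved with Col9a3, with log2 differences of 0.21, -0.50 and -0.57 in mice 1, 2 and 3 and an r of 0.79 over the 6 libraries, and had an r of 0.53 with Col9a2 and 0.08 with Col9a1; its part in these levels was not tested.

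Col25a1 encodes a transmembrane collagen known from neurons and from the innervation of muscle. It was at 6.34, 3.96 and 1.39 CPM in the WT glands and at 2.54, 3.15 and 0.521 CPM in the mutant glands. Each mutant gland was below its contralateral WT gland, yet the groups overlapped, since the WT gland of mouse 3 was below the mutant glands of mice 1 and 2. The fitted log2 fold change was -1.00 (SE 0.28), a fold change of 0.501, made up of log2 differences of -1.31, -0.33 and -1.36. The lowest library, the mutant gland of mouse 3, held 32 counts, with an exact Poisson 95% interval of 21.9 to 45.2 that covers counting error only. Without mouse 1 the value was -0.83 and no longer passed.

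Col23a1, the other transmembrane collagen of the set, was at 12.1, 9.57 and 8.03 CPM in the WT glands and at 10.5, 12.9 and 11.0 CPM in the mutant glands. It was lower in the mutant gland of mouse 1 and higher in those of mice 2 and 3, the groups overlapped, and its fitted log2 fold change of 0.23 (SE 0.18) was the single value above 0. Col13a1 and Col17a1, transmembrane collagens outside the set, had fitted log2 fold changes of -0.12 (SE 0.16) and -0.59 (SE 0.11).

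Col14a1 and Col12a1 encode fibril-associated collagens that bind the surface of type I collagen fibrils. Col14a1 was at 467, 316 and 531 CPM in the WT glands and at 576, 414 and 294 CPM in the mutant glands. The mutant gland was higher in mice 1 and 2 and lower in mouse 3, with log2 differences of 0.30, 0.39 and -0.86, which gave a fitted value of -0.05 (SE 0.28). Without mouse 3 the value was 0.35 and passed the threshold for a higher level, so that mouse decided the result.

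Col12a1 was at 21.1, 26.9 and 20.7 CPM in the WT glands and at 19.7, 25.2 and 19.6 CPM in the mutant glands. All 3 pairs differed by a similar small step, with log2 differences of -0.10, -0.09 and -0.08 and a fitted value of -0.09 (SE 0.076), far inside the fold threshold. Per exon length, Col14a1 was 25.6 to 63.6 times as abundant as Col12a1.

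Col16a1 was at 130, 174 and 146 CPM in the WT glands and at 126, 159 and 128 CPM in the mutant glands. It too was lower in each mutant gland, by log2 differences of -0.04, -0.13 and -0.18, and its fitted value was -0.12 (SE 0.072). The groups of both Col12a1 and Col16a1 overlapped, and the genes rose and fell together over the 6 libraries (r = 0.94).

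**Figure D3:**
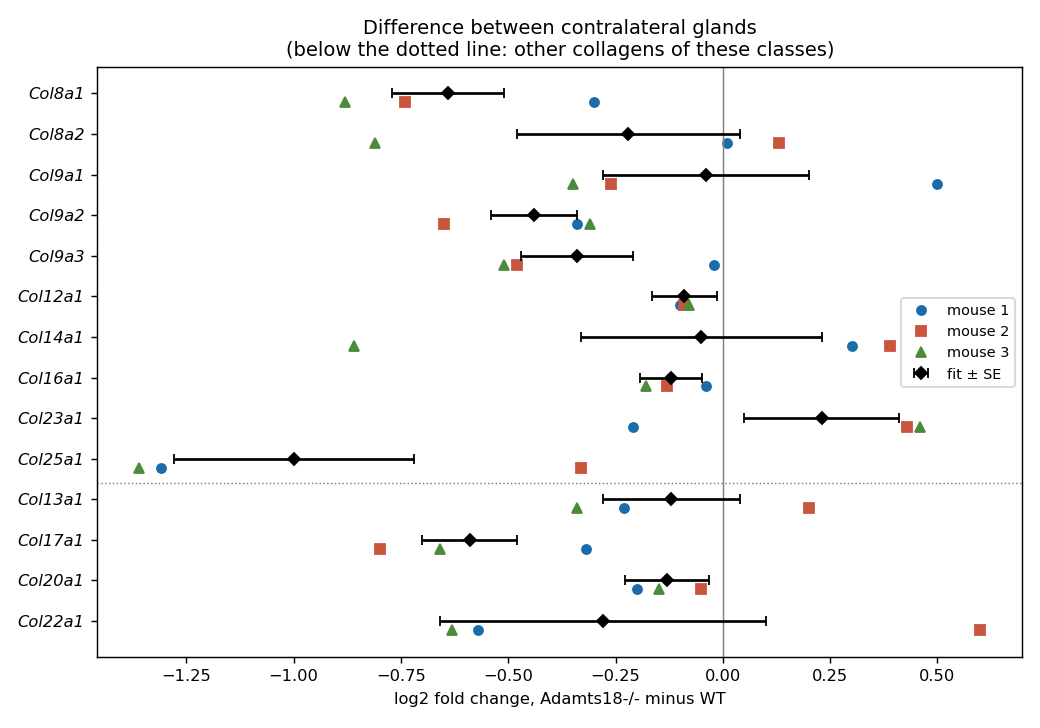
Difference between contralateral glands for the 10 collagen genes and, below the dotted line, for 4 other collagens of these classes. The horizontal axis gives the log2 fold change, Adamts18-/- minus WT; diamonds are fitted values with bars of 1 SE, and coloured symbols are the values of each mouse. Col8a1, Col9a2 and Col25a1 have all of their points clearly left of 0, and Col12a1 has its 3 points within -0.10 to -0.08.

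The levels were then compared between the 3 hosts, a contrast that did not choose the genes, with edgeR's quasi-likelihood F test of the mouse terms and adjustment over all genes. No gene of the set reached an adjusted p of 0.05, and 109 genes did in all (0.628% of those tested). By unadjusted p under 0.05, 6 of the 10 genes differed between hosts, Col8a2, Col9a2, Col9a3, Col12a1, Col16a1 and Col25a1, against 27.2% of all genes. DESeq2 called 3 of the genes by adjusted p, Col9a2, Col16a1 and Col25a1, among 3274 genes in all, and edgeR without the filter on low counts called Col9a2 and Col25a1, among 1106 genes.

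Col25a1 had a mean over both glands of 4.44 CPM in mouse 1, 3.56 CPM in mouse 2 and 0.953 CPM in mouse 3, a 4.66-fold range (edgeR, adjusted p = 0.0738). Both glands of mouse 3 were lower than all glands of the other hosts. Summed adipocyte markers were also lower in mouse 3, at 10200 and 7950 CPM in its WT and mutant gland against 15700 to 18200 CPM in the other hosts, as were fibroblast markers, at 10200 and 7580 CPM against 12700 to 16100 CPM. Over the 6 libraries Col25a1 had an r of 0.95 with the adipocyte, 0.93 with the fibroblast and 0.91 with the endothelial sum. It had 0.89 with the Schwann cell, 0.73 with the pericyte and vascular muscle and 0.63 with the myoepithelial sum. The r was -0.26 with the pan-epithelial, -0.29 with the skeletal muscle, -0.65 with the neuronal and -0.84 with the leukocyte sum. The part of these cell types in the Col25a1 level was not tested.

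Col9a2 differed between hosts in another way, with means of 18.7, 33.2 and 28.7 CPM in mice 1, 2 and 3 (edgeR, adjusted p = 0.0737), low in both glands of mouse 1. Col9a3 had the same order of mouse 1 below the others, at 16.3, 23.9 and 24.7 CPM (adjusted p = 0.150). Col8a2 was instead high in mouse 1, at 2.29 CPM against 1.17 and 1.22 CPM (adjusted p = 0.180). Col12a1 and Col16a1 were high in mouse 2, at 26.1 CPM against 20.4 and 20.2 CPM for Col12a1 (adjusted p = 0.120) and at 166 CPM against 128 and 137 CPM for Col16a1 (adjusted p = 0.125). Col8a1, Col9a1, Col14a1 and Col23a1 had unadjusted p of 0.483, 0.271, 0.372 and 0.453.

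Cell type markers moved with the genotype as well. Of 12 myoepithelial genes, 11 were called lower in the mutant glands and none higher, among them Acta2, smooth muscle actin (log2 fold change -0.45, SE 0.10), and Krt14, a basal keratin (-0.56, SE 0.21); the sum was 1340 to 2300 CPM in WT and 911 to 1660 CPM in mutant glands, with log2 differences of -0.31, -0.47 and -0.59 in mice 1, 2 and 3. Of 20 pan-epithelial genes, Krt8, Krt18, Spint1 and St14 were called lower, and the sum was 1230 to 1850 CPM in WT and 914 to 1300 CPM in mutant glands, with log2 differences of 0.01, -0.74 and -0.51. For hormone-sensing luminal genes 4 of 7 were lower (868 to 1270 against 773 to 981 CPM), and for secretory luminal genes 1 of 7 tested (370 to 863 against 337 to 415 CPM).

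Markers of stroma and other tissues moved less regularly. None of 12 fibroblast genes and none of 10 adipocyte genes was called. Endothelial genes (932 to 1340 CPM in WT, 778 to 1360 CPM in mutant glands), leukocyte genes (501 to 888 and 549 to 1680 CPM) and neuronal genes (5.35 to 6.07 and 4.65 to 9.29 CPM) had no calls. The pericyte and vascular muscle list (475 to 677 and 418 to 887 CPM) had 1 higher gene, Des, and the Schwann cell list (944 to 1340 and 654 to 1270 CPM) had 1, Egr2. Des averaged 44.8 CPM in WT and 154 CPM in mutant glands, with log2 differences of 2.45, 2.33 and 0.11 in mice 1, 2 and 3. The other genes of its list had fitted log2 fold changes from -0.26 (Notch3) to 0.15 (Higd1b). Skeletal muscle genes ranged from 302 to 2920 CPM in WT and from 1970 to 11500 CPM in mutant glands, with log2 differences of 5.25, 3.69 and -0.57 and no call. No listed marker found in the table was at 0 in every library.

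Beside the 4 collagens called lower, the marker sums ran in parallel in part. Col8a1 shared with the myoepithelial and the hormone-sensing luminal sum a difference below 0 in every mouse and a smaller one in mouse 1. The hormone-sensing luminal differences were -0.13, -0.17 and -0.61 in mice 1, 2 and 3. Over the 6 libraries Col8a1 had an r of 0.74 with the pan-epithelial and 0.68 with the myoepithelial sum. It had 0.55 with the hormone-sensing luminal and 0.07 with the fibroblast sum. Col9a2 had an r of 0.68 with the myoepithelial, 0.49 with the pan-epithelial and -0.36 with the fibroblast sum. With the secretory luminal sum the r was 0.82 for Col8a1, 0.76 for Col9a2, 0.74 for Col9a3 and 0.30 for Col25a1. Col9a3 had an r of 0.69 with the pan-epithelial, 0.53 with the myoepithelial and -0.45 with the fibroblast sum. With the chondrocyte sum the r was 0.79 for Col9a3 and 0.75 for Col8a1. Col12a1 and Col16a1, which were not called, had an r of 0.94 and 0.92 with the myoepithelial sum. They had 0.68 and 0.80 with the secretory luminal and 0.77 and 0.58 with the endothelial sum. The myoepithelial sum was led by contractile genes, with WT means of 467 CPM for Acta2, 283 for Myh11 and 238 for Tagln. Which cells gave these transcripts was not tested. Col23a1 had an r of -0.94 with the pan-epithelial and -1.00 with the low chondrocyte sum. The share of epithelium in the difference of any of these genes was not tested.

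**Figure D4:**
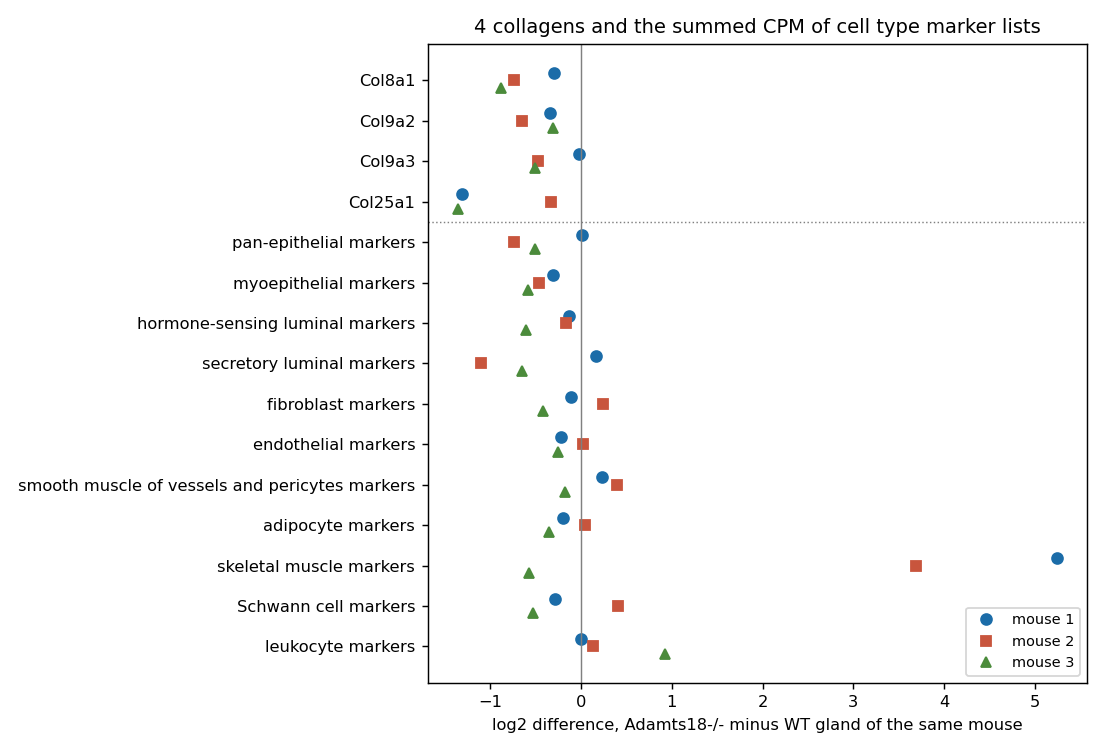
The 4 collagens called lower beside marker lists, with the chondrocyte and neuronal lists not drawn. The horizontal axis gives the log2 difference, Adamts18-/- gland minus WT gland of the same mouse, of CPM for each gene and of summed CPM for each list; symbols are the 3 mice. The myoepithelial points lie at -0.31, -0.47 and -0.59, and the skeletal muscle points at 5.25, 3.69 and -0.57.

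When libraries were scaled to the summed pan-epithelial genes in place of all genes, the median of all genes moved up by 0.42 on the log2 scale, all-gene calls went from 319 lower and 203 higher to 30 lower and 1588 higher, and none of the 10 collagens was called. Col8a1 was then at -0.22, Col9a2 at -0.02, Col9a3 at 0.07 and Col25a1 at -0.60. Scaled to the myoepithelial genes, the shift was 0.45, with 28 genes lower and 10699 higher, Col8a1 was at -0.19, Col25a1 at -0.55, and Col12a1 (0.36), Col16a1 (0.33) and Col23a1 (0.68) were called higher. Such scaling shifts all genes together, so values relative to the median of all genes are nearly fixed in advance. Relative to that median, Col8a1 was at -0.64, Col9a2 at -0.44 and Col9a3 at -0.34 under both scalings.

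Other collagens and their partners were counted in lists by function. Of 4 tested collagens of the same classes outside the set, Col17a1, a hemidesmosomal collagen of basal epithelium, was called lower, and the median log2 fold change was -0.21. It averaged 73.4 ± 32.8 CPM in WT and 46.9 ± 14.1 CPM in mutant glands (SD, n = 3 each), with log2 differences of -0.32, -0.80 and -0.66. Of 10 fibrillar collagens none was called in either direction, and their median was 0.21. Col3a1, the reticular fibre collagen, was at 3080 ± 314 CPM in WT and 4130 ± 941 CPM in mutant glands (log2 fold change 0.41, SE 0.20).

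Of 16 basement membrane, beaded filament and anchoring collagens, Col4a6, a chain of epithelial basement membranes, was called lower (log2 fold change -0.44, SE 0.15), and the median was -0.07. Of 9 collagen receptors, Gpr56, an adhesion G protein-coupled receptor that binds collagen III, was called lower (-0.35, SE 0.11; median -0.06). None of 16 fibril surface partners such as decorin (median -0.05), of 4 proprotein convertases (-0.05) and of 14 prolyl and lysyl hydroxylases and their chaperones (0.05) was called. These counts are edgeR's; DESeq2 called 1 gene in each of the fibrillar, fibril surface partner and hydroxylase lists and 2 of the basement membrane list. The receptor call was lost without mouse 1 and without mouse 3, and the basement membrane call without mouse 3; without the mouse as a block, none of Col17a1, Col4a6 and Gpr56 was called. In edgeR, 1 partner passed with library size scaling and 1 hydroxylase without the filter on low counts. Scaled to the myoepithelial genes, where 10699 of all genes were called higher, 8 fibrillar collagens, 7 basement membrane collagens, 9 partners, 5 receptors, 3 convertases and 14 hydroxylases passed.

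For each gene, the 3 genes most alike were taken by Pearson r of log2 CPM over the 6 libraries among 14710 tested genes with a mean of at least 1 CPM. With so many candidates and 6 libraries that share hosts in pairs, high values are easily found, and the r are given as a description. For Col8a1 they were Atp2b2 (0.986), F11r (0.985), which encodes the junctional adhesion molecule A, and Dtx3 (0.985). For Col8a2 they were Spr (0.998), 2010110P09Rik (0.995) and Pdgfrl (0.990).

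For collagen IX, Col9a1 was most like Fam103a1 (0.989), Sycp2 (0.985) and Tmem14a (0.985). Col9a2 was most like 4930455C21Rik (0.987), Deaf1 (0.985) and Fat2 (0.984), an atypical cadherin of basal epithelium. Col9a3 was most like Macc1 (0.993), Psmb2 (0.985) and Chka (0.982). None of the 3 lists shared a gene with another.

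Col12a1 was most like D930016D06Rik (0.991), Adamts7 (0.989) and Mdk (0.988). Col14a1 was most like N28178 (0.987), Glo1 (0.985) and Islr2 (0.985). Col16a1 was most like Lgals7 (0.990), which is on the myoepithelial list, Zfp365 (0.989) and Rin1 (0.989).

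For the transmembrane collagens, Col23a1 was most like Ccnd2 (0.986), encoding cyclin D2, Sprn (0.984) and D19Wsu162e (0.983). Col25a1 was most like Myct1 (0.997), Clip3 (0.997) and Nisch (0.996).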

How the data were processed

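Raw read counts for each gene symbol were deposited by the authors, 1 column per gland, from single-end reads of 85 bases; 0 columns belonged to other samples. The submitters' processing notes name bcl2fastq 2.18, TopHat2 2.0.11, featureCounts 1.6.2, edgeR and mouse build mm9; annotation and strand setting were not given in the sources used here. The counts were fitted with edgeR 4.0.16 under R 4.3.3 (filterByExpr, TMM factors, quasi-likelihood test), the host mouse being a block. Calls used the study's thresholds, a fold change under 0.8 or over 1.25 with unadjusted p under 0.05; scripts were tested on simulated data. CPM used TMM factors and log2 CPM a prior count of 2. Exon lengths (29241 symbols) and gene positions came from GENCODE M21 (GRCm38). The members and all gene lists were chosen with earlier results of these data known. Named genes were the members, Adamts18, list genes past the thresholds (at most the 6 with the smallest p in a list) and the 3 genes most like each member; Acta2, Krt14, Col3a1, Col13a1, Tcfl5 and the called markers were added with their values in view. Pairing came from the labels and the study's text: contralateral glands deviated together (correlations 0.512, 0.505 and 0.639). Without the block, 1 member, Col8a1, was called lower in place of 4. No libraries were near-identical (chi-square per degree of freedom 44.0 to 468). With the mouse as a block, p-values for genotype and hosts are set against the spread left after both are fitted, in these 3 hosts. Alternatives were other scalings, filters, DESeq2 1.42.0, limma-voom (limma 3.58.1), each mouse left out, and no block; scaling to the myoepithelial list was chosen after seeing the data.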

Additional observations from a re-analysis of the deposited data

How the results depend on the processing

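With upper quartile, RLE or library size scaling, a minimum of 10 counts in every library, DESeq2 or limma-voom, 4 members were called lower and 0 higher. Without the replicate block 1 was called lower. With scaling to the pan-epithelial genes 0 were lower and 0 higher, and these reversed: Col8a2 0.18, Col9a1 0.38, Col9a3 0.07, Col12a1 0.33, Col14a1 0.36 and Col16a1 0.30. With scaling to the myoepithelial genes, added after seeing the data, 0 were lower, 3 higher and 1 passed by adjusted p, as did 8350 of all 17345 genes, and these reversed: Col8a2 0.23, Col9a1 0.42, Col9a2 0.02, Col9a3 0.11, Col12a1 0.36, Col14a1 0.40 and Col16a1 0.33. Leaving out each mouse gave 3 called lower each time and 0 to 1 higher; log2 fold changes then ranged from -0.31 to 0.13 for Col9a1 (above 0 without mouse 2 or 3), from -0.40 to 0.08 for Col8a2 and from -0.28 to 0.35 for Col14a1 (both above 0 without mouse 3). DESeq2 called 1 member by adjusted genotype p. Between hosts, 0 members passed, against 1 with pan-epithelial scaling (1605 of all genes), 7 with myoepithelial scaling (13972 of all genes), 2 without the filter on low counts (1106) and 3 with DESeq2 (3274); leaving out a mouse gave 0. The marker scalings differ from the main one by a shift of all genes; the cause of the other changes was not tested. The SE was 0.28 for both Col25a1 and Col14a1 and 0.26 for Col8a2, although Col14a1 had 18046 to 32601 counts per library.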
